A study of Mus musculus with 6 samples.

Results

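The replication-dependent histone genes were taken as every listed gene whose symbol begins with Hist1h, Hist2h, Hist3h or Hist4h, which gave 61 of the 21139 genes in the table. They comprise 5 H1, 16 H2A, 18 H2B, 10 H3 and 12 H4 genes, and 2 of the 61, Hist1h2aj and Hist3h2bb-ps, are listed as pseudogenes. Expression was measured in bulk RNA of CD4+ T cells from the spleen of C57BL/6J mice. All cells were stimulated for 2 days with antibodies to CD3 and CD28, which stand in for antigen and co-stimulation and drive resting T cells into division. In 3 libraries the medium also held CpdA, given in the design text as an agonist of Gpr120, at a labelled dose of 20 with the unit read here as µM. The other 3 libraries had medium alone, and the sources used here do not say whether that medium held the solvent of CpdA. The labels give neither the age of the mice nor whether 2 libraries of the same group stem from different mice or different cultures. The p-values therefore speak of the spread among these 6 libraries alone, and that spread may be technical.

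The core histones H2A, H2B, H3 and H4 form the spool around which DNA is wound, and H1 binds the linker DNA between spools. A dividing cell makes most of them during S phase from clustered, mostly intronless genes whose mRNAs end in a conserved stem-loop in place of a poly(A) tail. The stem-loop is bound by the protein Slbp, the transcript is cut downstream of it with the help of the U7 ribonucleoprotein, and the mRNA is degraded when replication stops. Histone variants such as H2afz and H3f3b are made from polyadenylated mRNAs through the whole cell cycle. Libraries that start from poly(A)+ RNA therefore catch only a small part of the replication-dependent mRNAs. The labels give total RNA as the molecule, their extract protocol speaks of mRNA, and neither states whether poly(A)+ RNA was selected.

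The stem-loops of 5 members that rose with CpdA and of Hist1h1c, the H1 gene with the most counts, are shown because they are the feature that sets these mRNAs apart. They are read 5′ to 3′ on the transcribed strand from the GENCODE M21 transcripts (GRCm38), with the 16 bases of the stem-loop in capitals and 5 bases on either side in lower case.
Hist1h4i: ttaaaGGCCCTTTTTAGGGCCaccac
Hist1h4j: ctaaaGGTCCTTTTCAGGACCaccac
Hist1h3c: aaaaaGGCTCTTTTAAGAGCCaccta
Hist1h2bk: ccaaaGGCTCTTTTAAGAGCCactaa
Hist3h2ba: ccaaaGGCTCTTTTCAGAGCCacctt
Hist1h1c: caaaaGGCTCTTTTCAGAGCCaccac
These stem-loops lie at chr13:22040966-22040981 on the minus strand (Hist1h4i), chr13:21735437-21735452 on the plus strand (Hist1h4j), chr13:23745047-23745062 on the minus strand (Hist1h3c), chr13:22036300-22036315 on the plus strand (Hist1h2bk), chr11:58949349-58949364 on the plus strand (Hist3h2ba) and chr13:23739512-23739527 on the plus strand (Hist1h1c). Hist1h3i, which also rose, has an annotated transcript that ends before any stem-loop.

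A stem-loop of this kind was found in the annotated transcript of 37 members, 21 to 54 bases after the stop codon (median 31). These are 62.7% of the 59 members with an annotated transcript, searched over its whole length, against 202 of 141701 other transcripts of the annotation (0.143%). Within the last 200 bases it was found in 21 members (35.6%), against 28 of the other transcripts (0.0198%). The most common form, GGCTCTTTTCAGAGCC, occurred in 21 members. The stem letters followed the histone class. All 9 members whose stem begins GGCCC were H4 genes, the only GGTCC stem was that of the H4 gene Hist1h4j, and all 27 members whose stem begins GGCTC belonged to H1, H2A, H2B or H3. The hexamer AATAAA, the usual poly(A) signal, stood in the last 50 bases of an annotated transcript of 13 members, among them Hist3h2ba, Hist1h4j and Hist1h1c, whose annotated transcripts run 169, 385 and 840 bases past the stem-loop. Members with that hexamer had a median level of 0.575 FPKM (the authors' unit, scaled by gene length and library total), against 1.69 FPKM for the 46 without it. Their median summed counts, which are not divided by length, were closer, at 85 with the hexamer and 106 without it.

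Promoter windows are shown for the H4, H3 and H2B members with the most counts among those that rose, from the RefSeq table (GRCm38.p6), from 250 bases before the annotated start to 50 after it. Capitals mark matches on either strand and at any position of the window. The motifs are TATAAA (the letters of the core promoter box), CCAAT (the upstream box) and ATTTGCAT (the octamer). Each motif was counted on its own, and none contains another. A match is a description and not a binding site. Hist1h4i is chr13:22041313-22041612 on the minus strand, Hist1h3c is chr13:23745472-23745771 on the minus strand and Hist1h2bk is chr13:22035571-22035870 on the plus strand.
Hist1h4i: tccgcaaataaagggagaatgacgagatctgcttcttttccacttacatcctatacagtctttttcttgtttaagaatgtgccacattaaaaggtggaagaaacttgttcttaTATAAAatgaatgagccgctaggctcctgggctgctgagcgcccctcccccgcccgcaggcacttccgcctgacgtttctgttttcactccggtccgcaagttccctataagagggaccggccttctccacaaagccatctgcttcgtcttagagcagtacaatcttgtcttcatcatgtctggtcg
Hist1h3c: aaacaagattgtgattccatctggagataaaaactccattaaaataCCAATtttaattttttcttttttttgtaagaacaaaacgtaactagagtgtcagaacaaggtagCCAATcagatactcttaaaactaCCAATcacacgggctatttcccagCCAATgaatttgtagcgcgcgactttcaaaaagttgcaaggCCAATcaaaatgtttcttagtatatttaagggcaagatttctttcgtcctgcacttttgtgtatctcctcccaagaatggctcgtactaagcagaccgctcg
Hist1h2bk: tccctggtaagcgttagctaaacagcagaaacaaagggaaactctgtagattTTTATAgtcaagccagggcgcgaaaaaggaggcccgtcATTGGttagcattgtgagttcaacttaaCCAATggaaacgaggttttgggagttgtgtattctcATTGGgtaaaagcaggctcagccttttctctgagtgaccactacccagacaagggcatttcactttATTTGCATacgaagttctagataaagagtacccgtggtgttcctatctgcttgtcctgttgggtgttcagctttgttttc
The Hist1h4i window holds 1 TATAAA and no CCAAT, and that of Hist1h3c holds 5 CCAAT and no TATAAA. That of Hist1h2bk holds 1 TATAAA, 3 CCAAT and 1 ATTTGCAT. Both TATAAA matches lie far upstream of the annotated start, and that of Hist1h2bk is on the opposite strand (TTTATA). Neither can be taken as the core promoter box of its gene. A promoter window was matched for 53 members. CCAAT was present in 45 of them (84.9%), against 37.3% of the 32764 other windows in the table, and the members without it were all H4 genes: all 5 H1, 14 H2A, 15 H2B and 8 H3 windows held it, but 3 of 11 H4 windows. TATAAA occurred in 31 member windows (58.5%), against 13.5% of the others. ATTTGCAT occurred in 11 (20.8%), against 1.71% of the others, in 6 H2A and 5 H2B windows and in no H1, H3 or H4 window. H2A and H2B genes that point away from each other share a gap, so a motif in that gap can be counted in both windows. A window without a match says only that these letters are absent from the window.

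Library totals were 21407172, 25952169 and 25203448 counts for CpdA and 20247761, 23640735 and 22859881 counts for medium. A count of 0 allows up to 0.116 to 0.148 CPM (the count divided by the library total, times 1000000) in one library, from 3 counts, and 0.0413 CPM over the 3 CpdA libraries or 0.0449 CPM over the 3 medium libraries. These limits cover counting error only. Of the labelled cell type, the markers Cd4, Cd3e, Cd3d and Trac summed to 807 to 824 CPM with CpdA and 920 to 936 CPM with medium; all 4 fell with CpdA. B cell markers summed to 17.7 to 21.5 CPM with CpdA and 14.7 to 20.3 CPM with medium, and 1 of the 3, Ms4a1, rose (log2 fold change 0.54, adjusted p = 0.0349 in edgeR's test), with no overlap between groups. CD8 markers summed to 7.33 to 9.40 CPM with CpdA and 7.99 to 8.84 CPM with medium. The NK cell list summed to 48.2 to 50.8 CPM with CpdA and 50 to 55.1 CPM with medium, nearly all of it Gzma, while its other members Klrb1c and Ncr1 had 0 and 1 counts with CpdA and 4 and 2 with medium. Macrophage and platelet lists stayed at or under 0.357 CPM, erythroid genes at 0.694 to 1.11 CPM with CpdA and 1.28 to 1.65 CPM with medium, and the one neutrophil gene listed, Ly6g, at 4.55 to 5.63 CPM with CpdA and 5.42 to 6.52 CPM with medium. The part of other cell types in the histone values was not tested.

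Reads assigned to the 61 listed genes were scarce in every library, and their share was somewhat higher with CpdA. How much of the mRNA of these genes the libraries caught is unknown, so this is not its level in the cells. Together the 61 genes took 104.5, 110.0 and 106.7 CPM in the CpdA libraries, against 86.7, 86.1 and 86.0 CPM in the medium libraries. The groups did not overlap, and the mean was 107.0 ± 2.8 CPM with CpdA and 86.3 ± 0.4 CPM with medium (SD, n = 3 each), a ratio of 1.24. The sum carries no test. By gene, 51 of the 61 had counts in all 6 libraries, and 39 passed the filter on low counts and were tested; the other 22 are given by their counts below. In edgeR's quasi-likelihood test with Benjamini-Hochberg adjustment over all 13507 genes tested, 6 of the 39 rose with CpdA (15.4%), where 16.5% of all tested genes rose. None fell, where 16.7% of all tested genes fell. The share that rose was thus close to that of genes at large. At an unadjusted p under 0.05, 12 members were higher and 0 lower with CpdA, where the shares over all genes were 20.8% and 20.7%. DESeq2 and limma-voom also called 0 members lower. With trends in gene length and GC content removed, 11 members rose, where 20.7% of all tested genes rose, and 60.8% of all calls over all genes were higher, against 49.8% without that step. The 5 members added by that step were Hist1h1c, Hist1h2ae, Hist1h2ag, Hist1h3g and Hist1h4c.

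The 6 members that rose were the H4 genes Hist1h4i and Hist1h4j, the H3 genes Hist1h3c and Hist1h3i and the H2B genes Hist1h2bk and Hist3h2ba. The remaining 33 tested members spanned log2 fold changes of CpdA over medium from -0.31 to 1.32. Fitted values were above 0 for 28 of the 39 tested members (71.8%), against 50.1% of all tested genes, and their median was 0.30, against 0.0004 for all tested genes. CpdA and medium libraries did not overlap for 10 members with CpdA higher (25.6%, where 22.9% of all tested genes did so) and for 0 with CpdA lower (where 21% of all tested genes did so). Low counts limit these comparisons. The tested members had summed counts of 49 to 1952 over the 6 libraries, median 182, against a median of 3144 for all tested genes. The standard errors (SE) of their log2 fold changes ran from 0.09 to 0.56 with a median of 0.29, against 0.07 for all tested genes.

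**Figure D1:**
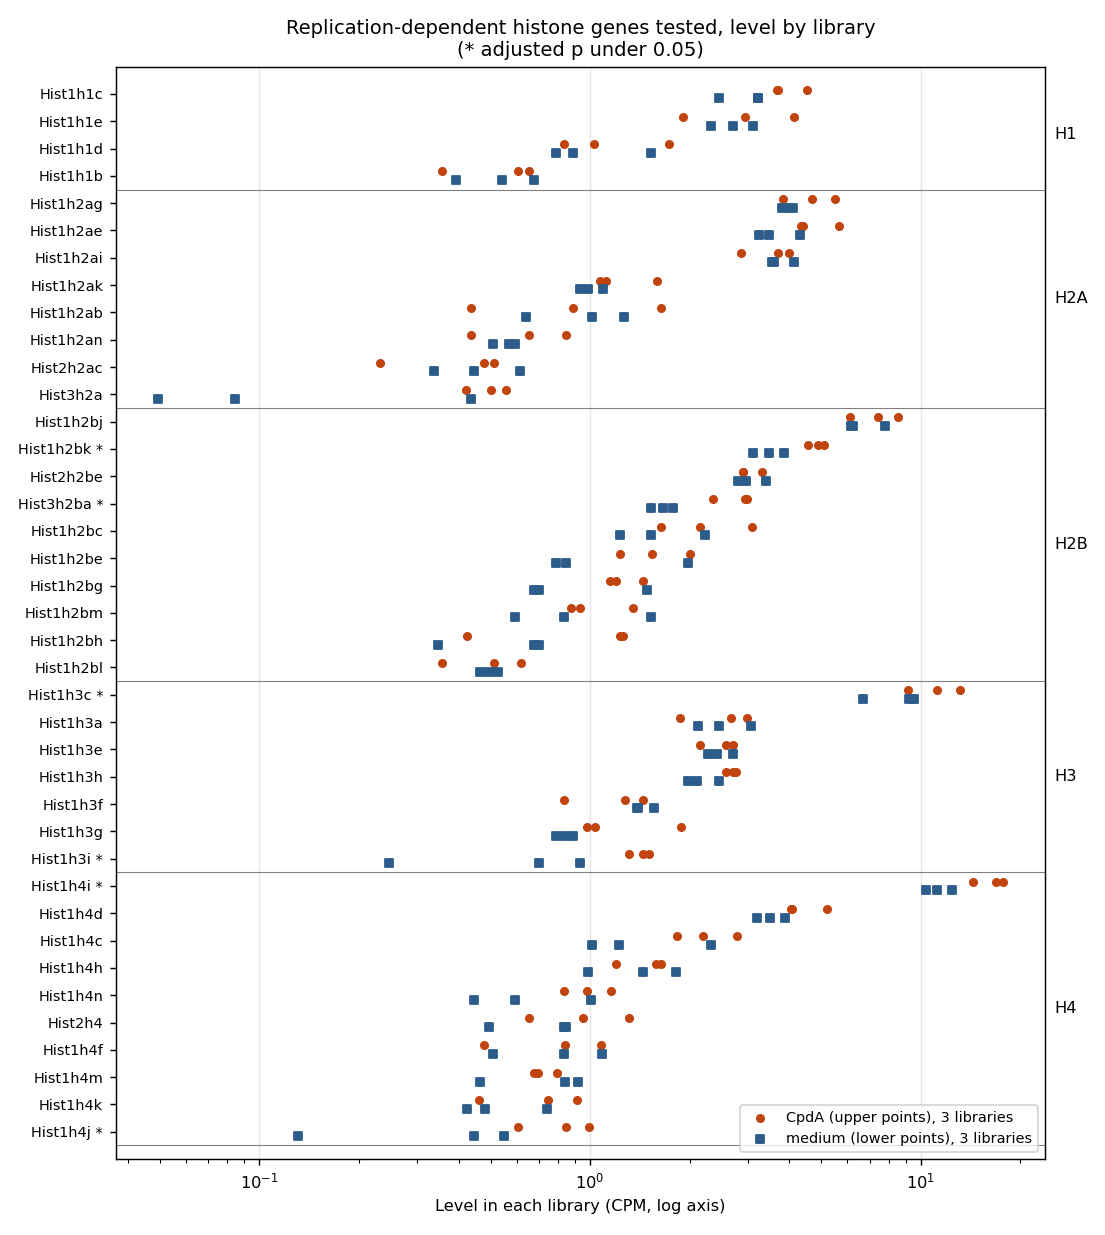
Level of each of the 39 tested histone genes in each library, in CPM on a log axis, grouped by class; circles are the 3 CpdA libraries and squares the 3 medium libraries, and an asterisk marks an adjusted p under 0.05. Hist1h4i has the most counts, with all CpdA points between 14.4 and 17.7 CPM and all medium points between 10.4 and 12.4 CPM, while most genes lie near 1 CPM and their groups overlap.

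Levels between genes were compared per length, in FPKM. How much of each mRNA the libraries caught is unknown, so the order need not be that in the cells. The members' means over the 6 libraries ran from 0.00613 to 20.1 FPKM with a median of 1.52, and 8 members stood above the median of 7.51 FPKM for all tested genes. The order was led by Hist1h3c with 22.8 ± 4.1 FPKM with CpdA and 17.3 ± 3.2 FPKM with medium (SD, n = 3 each), followed by Hist1h4i with 22.5 ± 2.4 FPKM with CpdA and 15.6 ± 1.4 FPKM with medium. These leaders did not differ from each other beyond their spread. Next came Hist1h2bj with 15.9 ± 2.6 FPKM with CpdA and 14.5 ± 2.0 FPKM with medium, then Hist1h4d with 11.3 ± 1.7 FPKM with CpdA and 8.98 ± 0.89 FPKM with medium. Hist1h2ai had 8.95 ± 1.53 FPKM with CpdA and 9.57 ± 0.85 FPKM with medium, and Hist1h2ae had 10.4 ± 1.6 FPKM with CpdA and 7.97 ± 1.21 FPKM with medium. Hist1h2ag and Hist1h2bk followed. From Hist1h4d to Hist1h2bk, neighbours in this order overlapped in both groups, except that the CpdA values of Hist1h4d (10.3 to 13.2 FPKM) were all above those of Hist1h2ai (7.25 to 10.2 FPKM). After Hist1h2bk, with 10.2 ± 0.6 FPKM with CpdA and 7.30 ± 0.78 FPKM with medium, came a step to Hist1h3h, with 6.52 ± 0.22 FPKM with CpdA and 5.30 ± 0.60 FPKM with medium, and these did not overlap in either group. Of the 100-base windows of Hist1h2ai, Hist1h2ag, Hist1h2bk and Hist1h3h, 88.4%, 76.2%, 70.8% and 92.0% also occur in another member. Their places in the order are therefore uncertain. A few genes held much of the total. Hist1h4i alone had 14.4% of the counts of all 61 members, the top 5 had 40.7% and the top 10 had 59.6%.

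**Figure D2:**
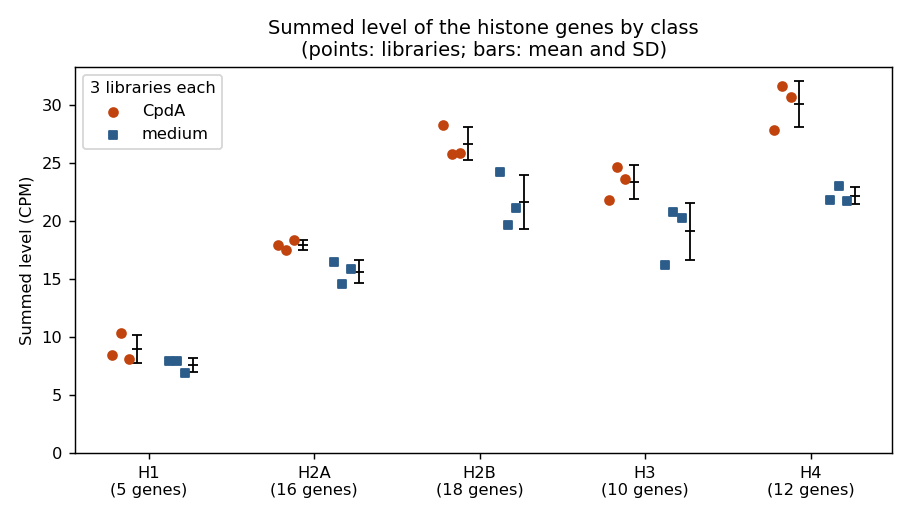
Summed level of the members of each histone class in each library, in CPM, with the mean and SD of the 3 CpdA libraries (circles) and the 3 medium libraries (squares). CpdA points stand above medium points in all 5 classes, with the highest ratio for H4 (30.1 ± 2.0 CPM with CpdA and 22.2 ± 0.7 CPM with medium).

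With all members counted, H4 genes had the highest ratio of CpdA to medium of the 5 classes, as a description without a test. Without the member with the most counts of each class, H2B came first. The log2 ratio was then 0.37 for H2B (0.30 with all members), 0.34 for H4 (0.44), 0.20 for H3 (0.29), 0.182 for H2A (0.20) and 0.11 for H1 (0.24). H4 pairs with H3 at the centre of the nucleosome, and all 12 annotated H4 coding sequences translate to the same product of 103 residues, counted with the first methionine. Their counts summed to 27.8, 31.7 and 30.7 CPM with CpdA, against 21.8, 23.1 and 21.7 CPM with medium. CpdA libraries were all higher, and the ratio of the means was 1.35, a log2 ratio of 0.44. Of the 12 genes, 10 were tested, 8 had a fitted value above 0 and 2 rose. Among all tested genes, 50.1% had a fitted value above 0 and 16.5% rose. The median log2 fold change of the tested H4 genes was 0.37.

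Hist1h4i (chromosome 13, 22040636 to 22041362, minus strand, single exon; coordinates in GRCm38 as deposited) had 308, 439 and 446 counts with CpdA, against 210, 293 and 256 counts with medium. In CPM these were 14.4, 16.9 and 17.7 with CpdA and 10.4, 12.4 and 11.2 with medium, so each CpdA library was above each medium library. The log2 fold change was 0.52 ± 0.09 (SE), with an adjusted p of 1.64e-05 in edgeR's quasi-likelihood test. The stem-loop shown above lies 30 bases after its stop codon, and 15.1% of its 100-base windows also occur in another member. Hist1h4j (chromosome 13, 21735064 to 21735837, plus strand) rests on far fewer counts, with 13, 22 and 25 in the CpdA libraries and 9, 13 and 3 in the medium libraries. The CpdA values of 0.607, 0.848 and 0.992 CPM were all above the medium values of 0.445, 0.550 and 0.131 CPM, the last of which was the lowest of all. Its log2 fold change was 1.12 ± 0.42 (SE, adjusted p = 0.0382). The call for Hist1h4j was lost without CpdA 2 (adjusted p = 0.0812), CpdA 3 (0.161), medium 1 (0.0561) or medium 3 (0.262).

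Hist1h4d, second in count among the H4 genes after Hist1h4i, had 4.06, 5.20 and 4.05 CPM with CpdA, against 3.51, 3.89 and 3.19 CPM with medium. The groups did not overlap, but at a log2 fold change of 0.32 ± 0.16 (SE) the adjusted p was 0.109 in edgeR's test. Other tested H4 genes had adjusted p-values of 0.071 or more, with log2 fold changes from -0.05 (Hist1h4m) to 0.59 (Hist1h4c, called higher with limma-voom and with trends removed). Hist4h4, the sole member of the cluster on chromosome 6, was not tested; its counts of 3, 2 and 9 with CpdA and 7, 2 and 6 with medium overlap.

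H3 carries the long tail on which many chromatin marks are set. The 10 annotated H3 genes translate to 2 products of 136 residues that differ at 1 position, one made by 6 members including Hist1h3c and the other by Hist1h3a, Hist1h3g, Hist1h3h and Hist1h3i. The class summed to 21.8, 24.7 and 23.7 CPM with CpdA and 16.3, 20.8 and 20.3 CPM with medium, without overlap. Counts of the second product's 4 genes summed to 7.90 ± 0.90 CPM with CpdA and 6.19 ± 0.87 CPM with medium without overlap, and those of the first product's 6 genes to 15.5 ± 1.6 CPM with CpdA and 12.9 ± 1.6 CPM with medium, with overlap. Of 7 tested H3 genes, 2 rose (all tested genes: 16.5% rose). Medium 1 was the lowest library of the class, and without it the log2 ratio of the class means was 0.19, against 0.29 with all libraries.

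Hist1h3c (chromosome 13, 23745013 to 23745501, minus strand) had 9.16, 11.2 and 13.1 CPM with CpdA, against 6.67, 9.22 and 9.54 CPM with medium. The groups overlapped, since CpdA 1 lay below medium 2 and medium 3. The log2 fold change was 0.39 ± 0.12 (SE, adjusted p = 0.0169 in edgeR's quasi-likelihood test), and the call was lost without CpdA 3 (adjusted p = 0.151) or without medium 1 (0.122). For Hist1h3i (chromosome 13, 21782960 to 21783370, minus strand) the CpdA libraries had 31, 39 and 33 counts and the medium libraries 5, 22 and 16. All CpdA values, 1.448, 1.503 and 1.309 CPM, were above the medium values of 0.247, 0.931 and 0.700 CPM, of which medium 1 was far the lowest. The log2 fold change was 1.13 ± 0.33 (SE, adjusted p = 0.00718), and without medium 1 it was 0.79 with an adjusted p of 0.0764. Of the 100-base windows of Hist1h3i, 68.6% also occur in another member, so its reads cannot be assigned with certainty.

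Hist1h3h had 2.76, 2.58 and 2.70 CPM with CpdA and 1.98, 2.45 and 2.10 CPM with medium. CpdA libraries were all higher, by a narrow margin over medium 2, and the log2 fold change was 0.28 ± 0.20 (SE, adjusted p = 0.284). It shares 92.0% of its windows with other members. The lowest fold change among all tested members was that of Hist1h3f, -0.31 ± 0.28 (SE, adjusted p = 0.422).

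H2A and H2B form the dimers that flank the H3 and H4 core. H2A genes summed to 18.0, 17.5 and 18.3 CPM with CpdA and 16.5, 14.6 and 15.9 CPM with medium, without overlap and at a ratio of 1.15. Of their 16 genes, 8 were tested and 0 rose or fell in edgeR's test (all tested genes: 16.5% rose and 16.7% fell). DESeq2 also called 0, while limma-voom called Hist3h2a higher. The fit with trends removed called Hist1h2ae and Hist1h2ag higher. In edgeR at an unadjusted p under 0.05, Hist1h2ae and Hist3h2a were higher with CpdA. Exons of all 16 H2A genes overlap those of another annotated gene, mostly on the opposite strand. How counting treated strand is not stated, and the part of this overlap in the H2A values was not tested. One product is encoded by 9 of the H2A genes, Hist1h2ae, Hist1h2ag and Hist1h2ai among them, whose counts summed to 15.1 ± 0.3 CPM with CpdA and 13.4 ± 0.7 CPM with medium (SD, n = 3 each). Hist1h2ae had 5.652, 4.354 and 4.404 CPM with CpdA and 4.30, 3.47 and 3.24 CPM with medium, all CpdA libraries higher. Its log2 fold change of 0.38 ± 0.16 (SE) missed the threshold (adjusted p = 0.0567), and passed it without CpdA 2 (0.0457) or without medium 1 (0.0281). Hist1h2ai had 2.85, 3.70 and 4.01 CPM with CpdA and 4.15, 3.60 and 3.54 CPM with medium, with overlapping groups, and its fitted log2 value was -0.09 ± 0.16 (SE, adjusted p = 0.712), or 0.03 without CpdA 1. Of the 100-base windows of Hist1h2ai, 88.4% occur in another member and 37.4% in genes outside the list. Its reads therefore cannot be assigned with certainty. Hist3h2a had the highest fold change of all tested members, 1.32 ± 0.56 (SE, adjusted p = 0.0683 in edgeR's test). It rests on 9, 13 and 14 counts with CpdA and 1, 2 and 10 counts with medium, where medium 3 was within the CpdA range. The annotated exons of Hist3h2a overlap those of the gene Trim17 on the same strand. Of its 100-base windows, 29.8% also occur in genes outside the list, so some of its reads may not be its own.

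H2B genes summed to 28.3, 25.8 and 25.9 CPM with CpdA and 24.2, 19.7 and 21.1 CPM with medium, without overlap and at a ratio of 1.23. Of the 18 genes, 10 were tested and 2 rose (all tested genes: 16.5% rose). Hist3h2ba (chromosome 11, 58948920 to 58949533, plus strand) had 64, 61 and 74 counts with CpdA, against 31, 42 and 38 with medium. Its levels of 2.99, 2.35 and 2.94 CPM with CpdA were all above those of 1.53, 1.78 and 1.66 CPM with medium. The log2 fold change was 0.72 ± 0.21 (SE, adjusted p = 0.0065 in edgeR's quasi-likelihood test). Its product differs at 7 positions from the H2B product that the most members share, and 4.9% of its 100-base windows occur in another member. Hist3h2ba and Hist1h4i were the members that kept their call under every alternative setting tried.

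Hist1h2bk (chromosome 13, 22035870 to 22036345, plus strand) had 5.09, 4.55 and 4.88 CPM with CpdA, against 3.11, 3.47 and 3.85 CPM with medium. Each CpdA library was above each medium library, and the log2 fold change was 0.46 ± 0.15 (SE, adjusted p = 0.0144). The call was lost without CpdA 1 (adjusted p = 0.0526), without medium 1 (0.0759) and with DESeq2 (0.0652), and 70.8% of its windows occur in another member. Hist1h2bj, the H2B gene with the most counts, had 8.502, 6.127 and 7.420 CPM with CpdA and 7.80, 6.13 and 6.26 CPM with medium. The groups overlapped, and the fitted log2 value was 0.12 ± 0.13 (SE, adjusted p = 0.529).

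H1 genes, which encode 5 different linker histones, summed to 8.502, 10.37 and 8.134 CPM with CpdA and 7.951, 7.995 and 6.955 CPM with medium. The groups did not overlap, but the nearest libraries of either group lay closer together than the SD of the CpdA libraries. The log2 ratio of the means was 0.24, and 0.12 without CpdA 2. Of 4 tested H1 genes 0 rose or fell in edgeR's test (all tested genes: 16.5% rose and 16.7% fell). DESeq2 and limma-voom also called 0, and Hist1h1c was called higher with trends removed. At an unadjusted p under 0.05 only Hist1h1c was higher with CpdA. Hist1h1c had 3.69, 3.66 and 4.52 CPM with CpdA and 3.21, 3.22 and 2.45 CPM with medium. All CpdA libraries were higher, and the log2 fold change of 0.41 ± 0.17 (SE) just missed the threshold (adjusted p = 0.053), passing it without CpdA 2 (0.0489). Hist1h1e, with 2.94, 4.12 and 1.90 CPM with CpdA and 2.32, 2.71 and 3.11 CPM with medium, overlapped between groups with a log2 fold change of 0.13 ± 0.21 (SE) and an adjusted p of 0.689. Without CpdA 2 its log2 fold change was -0.19. The annotated exons of Hist1h1e overlap those of Hist1h2be on the same strand, so reads may be shared between them.

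**Figure D3:**
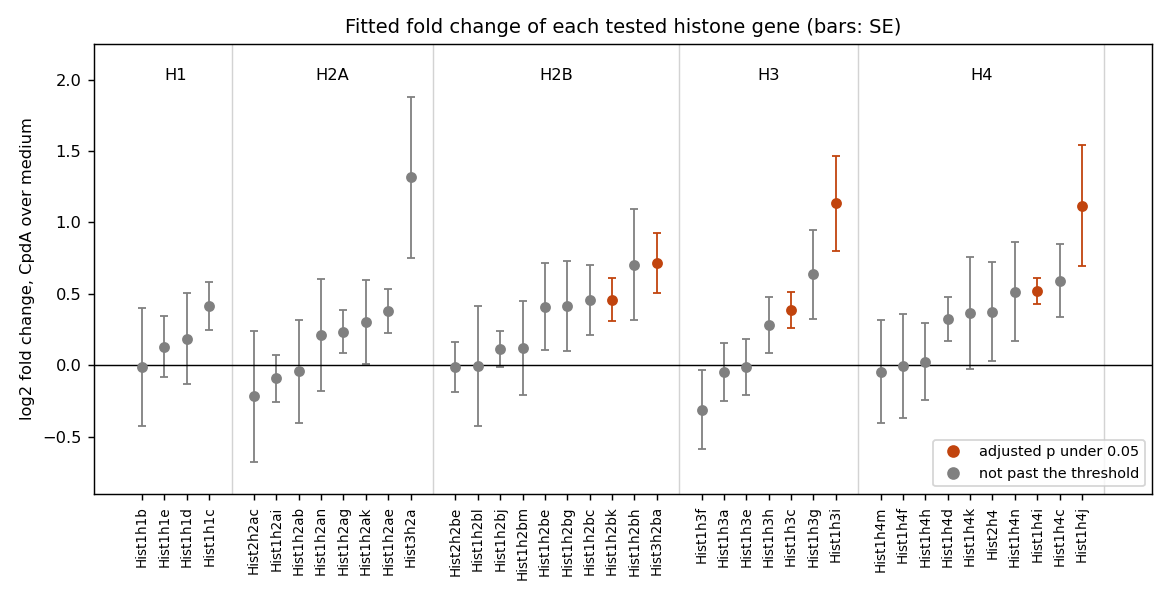
Fitted log2 fold change of CpdA over medium for each of the 39 tested members, by class, with bars of 1 SE; the 6 members with an adjusted p under 0.05 are coloured. Values run from -0.31 (Hist1h3f) to 1.32 (Hist3h2a), and the widest bar is that of Hist3h2a, with a summed count of 49. Hist3h2a, whose exons overlap those of Trim17 on the same strand, is not past the threshold, while Hist1h4i at 0.52 is.

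By position, 52 members belong to the Hist1 cluster on chromosome 13, 5 to Hist2 on chromosome 3, 3 to Hist3 on chromosome 11 and 1 to Hist4 on chromosome 6. Hist1 genes took 92.6% of the member counts, and summed to 99.0 ± 3.3 CPM with CpdA and 79.8 ± 0.4 CPM with medium (SD, n = 3 each). The Hist3 sum was 3.46, 2.97 and 3.53 CPM with CpdA, against 1.78, 1.90 and 2.10 CPM with medium. That was the widest ratio of any cluster, 1.72, and the groups stood apart. Most of the Hist3 sum was Hist3h2ba, with a mean of 2.76 of 3.32 CPM with CpdA and 1.66 of 1.93 CPM with medium. Hist3h2a, next in count in this cluster, may hold reads that are not its own. The Hist2 sum, 4.765, 4.277 and 4.404 CPM with CpdA and 4.45, 4.15 and 4.24 CPM with medium, overlapped. These cluster values are descriptions without a test, and whether the clusters differ in their response was not tested.

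Within chromosome 13 all Hist1 genes but Hist1h2al fall into 3 blocks; Hist1h2al lies beyond them at 51202688 to 51203065, with 1 count in all. The first (21715763 to 21837530) holds 19 members and 14.8% of the member counts, the second (22035164 to 22043676) 5 members and 30.7%, and the third (23531050 to 23764358) 27 members and 47.0%. Sums were 15.6 ± 0.6 CPM with CpdA and 13.2 ± 0.6 CPM with medium in the first block, 33.5 ± 2.3 CPM with CpdA and 25.7 ± 0.1 CPM with medium in the second, and 49.9 ± 3.5 CPM with CpdA and 41.0 ± 0.3 CPM with medium in the third (SD, n = 3 each). None of the 3 blocks overlapped between groups. The 5 members that rose on this chromosome are spread over all 3 blocks: Hist1h4j and Hist1h3i in the first, Hist1h2bk and Hist1h4i in the second and Hist1h3c in the third. The second block is short and holds Hist1h4i, Hist1h2bj, Hist1h2ag and Hist1h2bk, all among the 8 members above the median level of tested genes.

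**Figure D4:**
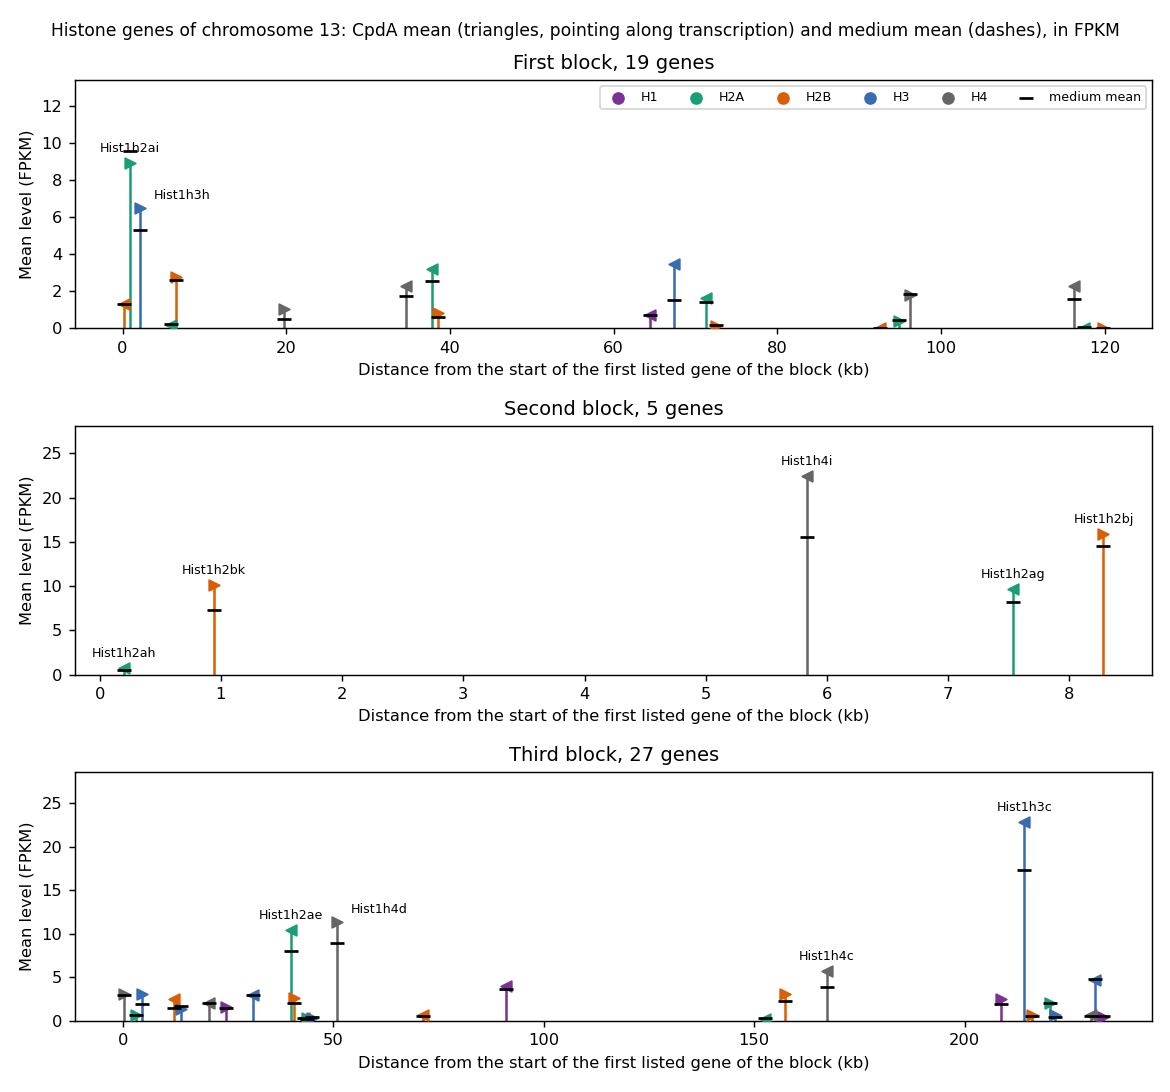
Mean level in FPKM of each member in the 3 blocks of chromosome 13 against its distance in kb from the start of the block's first listed gene; triangles are CpdA means and point along transcription, dashes are medium means, and colours are classes. High and low members stand side by side: in the second block Hist1h2bk (10.2 FPKM with CpdA and 7.30 FPKM with medium) neighbours Hist1h2ah (0.796 FPKM with CpdA and 0.495 FPKM with medium). Both share most of their 100-base windows with other members, so their reads cannot be assigned with certainty.

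Members that face away from each other from a shared gap were often unequal in level. There were 13 such pairs of an H2A and an H2B gene, with gaps of 172 to 301 bases, and both genes were tested in 4 of them, 1 gene in 6 and neither in 3. Hist1h2bk and Hist1h2ah, whose gap makes up nearly all of the Hist1h2bk window printed above, differed widely. Hist1h2bk had 10.2 FPKM with CpdA and 7.30 FPKM with medium, from 350 counts with CpdA and 233 with medium. Hist1h2ah had 0.796 FPKM with CpdA and 0.495 FPKM with medium, from 24 counts with CpdA and 13 with medium. Of their 100-base windows, 70.8% for Hist1h2bk and 87.9% for Hist1h2ah occur in another member. The part of read assignment in this difference was not tested. Hist1h2bj and Hist1h2ag were closer, with 15.9 FPKM for Hist1h2bj and 9.65 FPKM for Hist1h2ag with CpdA, and 14.5 FPKM for Hist1h2bj and 8.19 FPKM for Hist1h2ag with medium. Hist1h2ae and Hist1h2bg had log2 fold changes of 0.38 and 0.42, and neither passed the threshold. Exons of every H2A partner also overlap those of another annotated gene, and the part of this overlap was not tested. No difference between the partners of a pair was tested.

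The 22 members under the filter had summed counts of 1 to 50 over the 6 libraries, with a median of 18.5. Together they had 269 counts with CpdA and 221 with medium, 3.62% of the member counts. Highest were Hist1h3b with 33 counts over the CpdA libraries and 17 over the medium libraries, Hist1h1a with 23 for CpdA and 24 for medium, Hist1h4a with 27 for CpdA and 20 for medium, Hist1h2bb with 22 for CpdA and 18 for medium, and Hist1h2af with 21 for CpdA and 18 for medium. All 5 of these overlapped between groups. A count of 0 in at least 1 library was seen for 10 members. Hist1h2al, Hist1h2bq and Hist2h3c2 had 0 counts over the medium libraries, which allows up to 0.0449 CPM each, and 1, 3 and 2 counts over the CpdA libraries, at or under the 3 counts that a count of 0 allows. A difference in these was not detectable at this depth.

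Near-identical coding sequences bear on how reads were assigned. Of 61 members, 59 have a transcript in GENCODE M21, and 21 of these share at least 50% of their 100-base windows with another member (26 with windows of 50 bases). Their summed counts had a median of 69, against 152.5 for the 38 that share less. Of the 21, 11 were tested and 2 rose, Hist1h3i and Hist1h2bk. Among the 38, 26 were tested and 4 rose, where 16.5% of all tested genes rose. Exons of 19 members overlap those of another annotated gene. These include all 16 H2A members, mostly with a gene on the opposite strand. The sources used here do not say how the authors' counting treated strand or reads with several matches, so single-gene values of the highly shared members are uncertain. Class sums depend less on how reads were divided within a class, but would lose reads that were dropped or given to genes outside the list. Such genes hold 61.6% of the 100-base windows of Hist2h3c2, which shares 0% with other members.

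**Figure D5:**
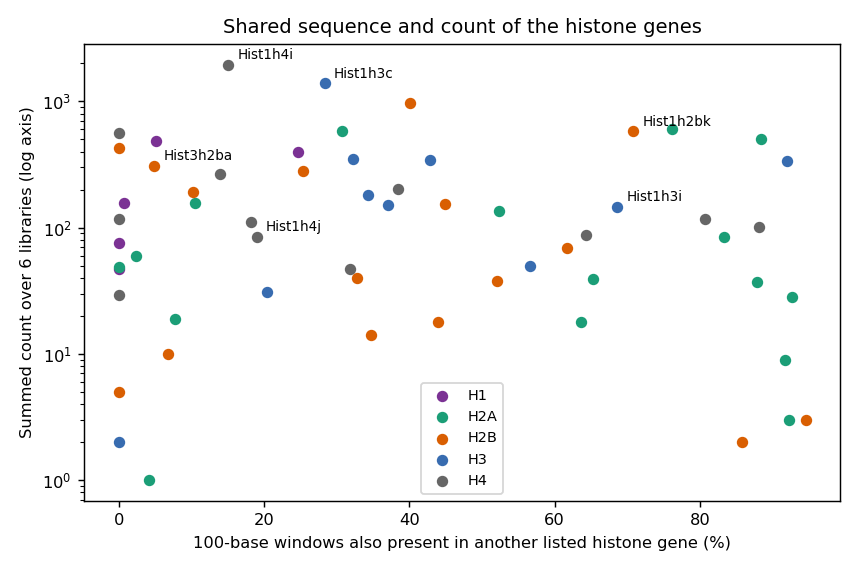
Summed count of each member over the 6 libraries (log axis) against the share of its 100-base windows that another member also holds, by class, with the 6 members that rose named. Hist1h4i, Hist1h3c, Hist3h2ba and Hist1h4j lie under 30% shared sequence, while Hist1h3i and Hist1h2bk lie near 70%.

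Genes that act with these histones had many more counts. Among 11 genes for histone variants with polyadenylated mRNAs, 10 were tested, 4 rose and 2 fell, where 16.5% of all tested genes rose and 16.7% fell; the median log2 fold change was 0.12. H1f0, a linker histone of slowly dividing cells, had 185.8 ± 4.0 CPM with CpdA and 138.3 ± 6.7 CPM with medium (SD, n = 3 each), and rose by 0.41 on the log2 scale (adjusted p = 1.74e-12). H3f3b, a replacement H3, rose by 0.23, the variant H2afz by 0.20 and the damage-marking variant H2afx, whose gene is known to give both polyadenylated and stem-loop mRNA, by 0.21, whereas the macro-domain variant H2afy fell by 0.21 and H2afv, a close relative of H2afz, fell by 0.19. The 11 variant genes summed to 1989 ± 29 CPM with CpdA and 1837 ± 30 CPM with medium, a ratio of 1.08, against 1.24 for the 61 replication-dependent genes; whether the ratios differ was not tested. Per length, the variant genes summed to 1066 ± 16.5 FPKM with CpdA and 960.5 ± 16.6 FPKM with medium, and the replication-dependent genes to 195.2 ± 4.5 FPKM with CpdA and 157.8 ± 1.5 FPKM with medium.

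Of 20 genes for transcription, 3′ processing and decay of histone mRNA, all tested, 10 rose and 3 fell (all tested genes: 16.5% rose and 16.7% fell), with a median log2 fold change of 0.09. Slbp, the stem-loop binding protein, had 115.9, 112.1 and 119.8 CPM with CpdA, against 88.3, 92.6 and 92.4 CPM with medium. All CpdA libraries were higher, and its log2 fold change was 0.34 ± 0.04 (SE, adjusted p = 3.27e-09 in edgeR's quasi-likelihood test). Casp8ap2, which recruits the cleavage machinery, rose by 0.33 and Srrt, a partner of the cap-binding complex, by 0.28, while Zfp473, a partner of the U7 ribonucleoprotein, fell by 0.42 and the cleavage scaffold Sympk fell by 0.16. For Npat, which activates histone transcription at the clusters, the values were 65.7 ± 3.0 CPM with CpdA and 64.0 ± 1.4 CPM with medium (log2 fold change 0.03, adjusted p = 0.689).

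Among 22 histone chaperone and deposition genes, 15 rose and 1 fell (all tested genes: 16.5% rose and 16.7% fell), with a median log2 fold change of 0.17. Nasp, which holds the soluble histone pool, rose by 0.33, the H3 and H4 chaperone Asf1b by 0.41, Rbbp7 by 0.28 and Hat1, which acetylates new H4, by 0.27. Of 22 S phase and DNA replication genes, 20 rose and 0 fell in edgeR's test (all tested genes: 16.5% rose and 16.7% fell), with a median log2 fold change of 0.21; DESeq2 called 19 of them, all higher. Tyms and Rrm2, enzymes of nucleotide supply, rose by 0.50 and 0.44, the licensing factor Cdc6 by 0.47 and the helicase subunit Mcm2 by 0.31. Mki67 and Top2a, which mark dividing cells, both rose, and summed to 1590 to 1670 CPM with CpdA and 1470 to 1480 CPM with medium. Their part in the histone values was not tested. Bulk RNA cannot tell a change in the share of cells with a transcript from a change in its level per cell. The list of other RNAs without a poly(A) tail was represented by Rnu11 alone, with 0 counts over the CpdA libraries and 2 over the medium libraries.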

How the data were processed

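RNA of 3 CpdA and 3 medium libraries was analysed from one table, in which the authors deposited raw read counts per gene, not pooled and not normalised, per the file headers. The authors' FPKM values can be recomputed from count, deposited length and library total (largest relative difference 1.86e-07). CASAVA 1.8, GRCm38 and mm10 are named in the submitters' processing notes. Of aligner, counter, annotation and strand setting the sources used here say nothing. Groups came from the labels, and 0 columns could not be tied to a sample.

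Counts were tested in R 4.3.3 with the quasi-likelihood test of edgeR 4.0.16 (TMM scaling, robust, no covariates). Genes were kept by filterByExpr (minimum count 10, minimum total 15), p-values were Benjamini-Hochberg adjusted over all tested genes, and a gene was called at an adjusted p under 0.05. The SE given for edgeR is the absolute log2 fold change divided by the square root of the test's F statistic. Within a group, any pair of libraries differed beyond sampling noise (chi-square per degree of freedom 2.18 to 4.18). Stem-loops, products and shared windows came from GENCODE M21, whose gene models can be longer or shorter than the deposited lengths. Every stem-loop was matched to one pattern of 16 bases.

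Members and gene lists were chosen with earlier results of these data known. Members named in full were those called, the 2 highest in FPKM of each class, the leading member of Hist3 and of Hist4, and the 5 untested members with the most counts; of each list, up to 4 called genes with the smallest p, with Slbp, Npat, H2afz and H3f3b. Outside this rule, Hist1h2ag, Hist1h2ah, Hist1h2al, Hist1h2bg, Hist1h2bq, Hist1h3f, Hist1h3g, Hist1h4c, Hist1h4m, Hist2h3c2, Hist3h2a, H2afv, H2afx, Zfp473 and Ms4a1 were named after their values were seen. Alternatives were DESeq2 1.42.0, limma-voom (limma 3.58.1), other scalings and filters, each library left out, a replicate block, and removal of trends in gene length and GC content (mgcv 1.9.3).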

Additional observations from a re-analysis of the deposited data

How the results depend on the processing

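The count of 6 members called, all higher, was between 4 (DESeq2, which gave an adjusted p to 31 members and none to Hist1h4j) and 9 under the other settings, except with length and GC trends removed, where 11 were called, all higher. That setting also moved the calls over all genes to 2802 higher and 1806 lower (60.8% higher), against 2231 and 2252 (49.8% higher), so that 20.7% of tested genes were higher. The members' median log2 fold change was 0.384 with these trends removed, 0.382 with the replicate block as well, and 0.215 over all 61 members without a count filter, against 0.302; its range was 0.218 to 0.385 with single libraries left out, where 5 to 8 members were called. Members are short (median 477 bases, against 2918 for all tested genes) and rich in GC (57.2%, against 49.8%). Length was as deposited and GC was that of the longest GENCODE M21 transcript, so the 2 can describe different gene models. Members without such a transcript got no correction for either trend. The log2 ratio of the H4 sum was 0.337 without Hist1h4i, against 0.438. The cause was not tested beyond the construction of each setting. The sign changed for 2 uncalled values: the log2 fold change of Hist1h2ai (-0.09) ranged from -0.19 to 0.03 with single libraries left out, highest without CpdA 1, and that of Hist1h1e (0.13) from -0.192 to 0.384, lowest without CpdA 2. No called value did so.

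Of 193 values of named members under the alternatives, 171 kept their direction and side of the threshold, 2 changed sign, 11 lost a call and 9 gained one. Without medium 1, 2 of the 6 members kept their call, Hist1h4i and Hist3h2ba. Hist1h1c and Hist1h2ae gained a call with trends removed (adjusted p = 0.0308 and 0.0139), with trends removed and the block (0.0462 and 0.0152), and with library totals as the only scaling (0.0471 and 0.0496). All-gene counts of calls lay between 3448 (DESeq2) and 4608, against 4483. Same-numbered libraries showed no shared deviation (correlations -0.021, -0.015 and -0.0006), which cannot tell whether they stem from the same mouse or culture. With the replicate block in edgeR's test 3936 genes and 5 members were called, and Hist1h4j was not among them (adjusted p = 0.0521). Depth limits most members: with a median SE of 0.293, a difference as small as their median would not be called for a typical member.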
